A study of Gallus gallus with 6 samples.

Results

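The sex chromosome genes of the chicken were the 859 genes of Z and the 16 genes of W, together 875 of 17108 genes in the deposited table of counts. A gene was taken as a Z or W gene when the first exon listed for it lay on that chromosome, and no measured value entered this choice. The libraries came from neural tube cells of chicken embryos, sorted for the GFP that the vectors co-express, 18 h after electroporation at stage HH 11. There were 3 conditions with 2 libraries each. MEK1ca + HOXB8 cells received a vector for a constitutively active form of the kinase MEK1 and a vector for the transcription factor HOXB8, at 1 µg/µL each. MEK1ca cells received the first of these vectors at 1 µg/µL with 1 µg/µL of the empty vector pCIG, and control cells received pCIG alone at 2 µg/µL. No embryo strain or genetic alteration besides the electroporated DNA is named, and all groups carry the GFP vector backbone. Each library came from a pool of embryos whose sex is not given in the sources used here. A sorted cell was GFP-positive, and in the double condition the uptake of both vectors by each cell was not measured in these libraries. HOXB8 alone was not analysed here. The labels mark the MEK1ca and pCIG libraries, but not the MEK1ca + HOXB8 libraries, as a reanalysis. Whether these sets were prepared or sequenced apart is not given by the labels. Any such difference cannot be told apart from HOXB8 in the comparisons with MEK1ca + HOXB8. Genes with a count numbered 14635 and 14693 in MEK1ca + HOXB8, and 14054 to 14095 in the other conditions.

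In birds, males carry a pair of Z chromosomes and females carry a Z and a W. W is small and gene-poor, and most of its genes are survivors of old Z-W pairs whose Z copies are still close in sequence, so that reads of a W gene and its Z partner can be hard to tell apart. Birds lack a chromosome-wide silencing or doubling of Z, so that many Z genes are transcribed more in male than in female cells. In a pool of embryos of unknown sex, RNA of W genes can thus only come from female cells, whereas RNA of Z genes comes from both sexes.

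The deposited table pairs its Ensembl identifiers with no gene names, and no table used here did so (0 identifiers matched). Genes are therefore given by their position in the galGal4 assembly, and no role is given to them. For the same reason the introduced MEK1 and HOXB8, the markers of neural tube cells and those of other cell types were not checked in these libraries. Total counts lay between 63637195 and 90460770 per library. Low counts in MEK1ca replicate 2 were nearly always even (99.4% of those from 1 to 10), whereas elsewhere 51.8% to 57.0% were, so that its counts cannot be read as independent reads and its counting intervals are too narrow. Halving them did not move any of the counts of Z or W calls given below by over 1.5 times. All 1229 genes of the mitochondrion, of linkage groups and of unplaced scaffolds were listed at 0 in every library, so that W or Z genes on unplaced scaffolds add nothing to the values below.

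Of the 16 W genes, 6 had a mean of at least 1 CPM (counts per 1000000 counts, scaled by TMM), and these 6 held 98.6% of all W counts. The W genes spanned only the stretch from 4704 to 1195193 of the assembled chromosome. Another 8 W genes were too low for the edgeR test, with at most 8 counts in any library, and 2 of these had no count at all, which allows up to 0.0332 to 0.0471 counts per 1000000 by 3 counts a library (counting error only). Of the 16 W genes, 7 consisted of 1 exon segment and 7 overlapped another gene, whose reads cannot be told apart from theirs where the strand was not used. The W signal was thus the signal of a handful of genes, and 2 of them, at W:22485-138725 and W:345220-411011, gave 68.2% of it. The genes inside the spans of these 2 were of 1 exon segment and 83 to 109 bases, with at most 2 counts in any library.

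The share of counts on W genes, in parts per 1000000 counts of a library (ppm), was 124.8 ppm in MEK1ca + HOXB8 replicate 1 (exact 95% interval 122.5 to 127.1) and 58.1 ppm in replicate 2 (56.5 to 59.8). It was 122.8 (120.1 to 125.6) and 142.9 (140.3 to 145.6) ppm in the MEK1ca libraries, and 86.2 (84.2 to 88.3) and 106.5 (104.2 to 108.8) ppm in the pCIG libraries. The MEK1ca + HOXB8 pools held both the lowest share and the second highest share of the 6 libraries, a 2.15-fold difference within 1 condition. Counts on W genes were present in every library. These intervals cover counting error only, since PCR copies are not independent molecules. A lower W share can stem from fewer female cells in the pool or from less W RNA per female cell. It can also stem from fewer reads of Z partners counted on W genes. These cannot be told apart in these bulk libraries.

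The W share averaged 132.9 ± 14.2 ppm in MEK1ca and 96.4 ± 14.3 ppm in pCIG (SD, n = 2 each), and the libraries of these conditions did not overlap (two-sided exact permutation test, p = 0.333, the smallest that 2 against 2 allows). It averaged 91.4 ± 47.1 ppm in MEK1ca + HOXB8, against 132.9 ± 14.2 in MEK1ca (exact permutation p = 0.667) and against 96.4 ± 14.3 in pCIG (exact permutation p = 1, SD, n = 2 each). No comparison of 2 libraries with 2 can pass 0.05 in this test. The difference between MEK1ca + HOXB8 and either other condition was smaller than the spread between the MEK1ca + HOXB8 replicates.

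**Figure D1:**
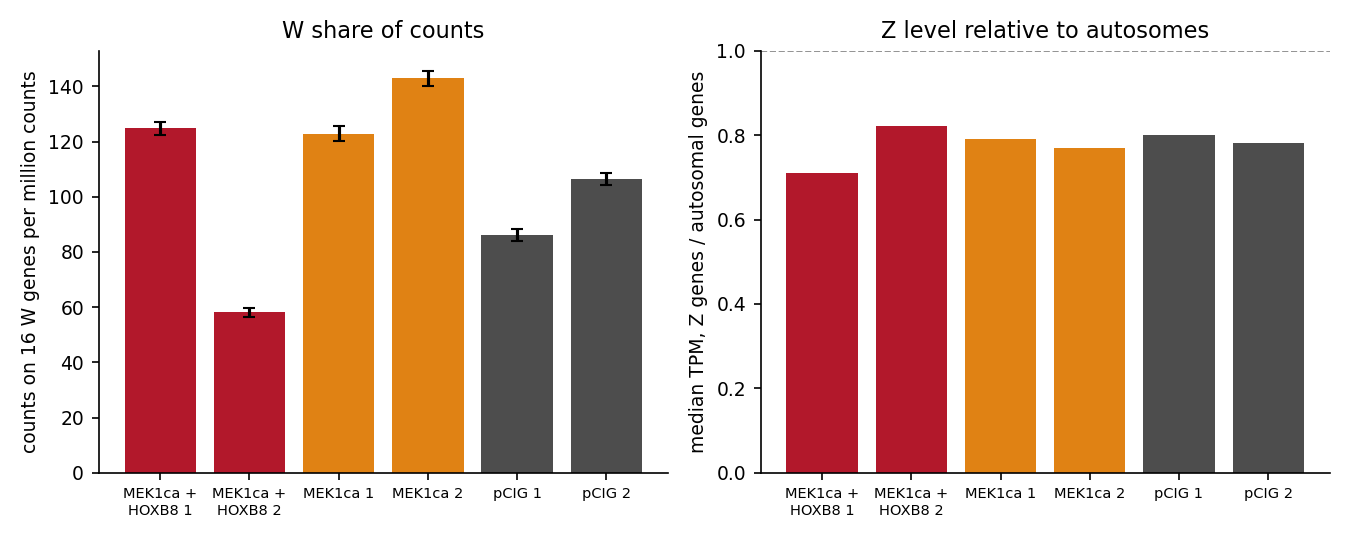
W share of counts in ppm, the counts on the 16 W genes per 1000000 counts (left, bars, with exact 95% intervals) and the ratio of the median TPM of Z genes to that of autosomal genes (right, bars; the dashed line marks equal levels) in the 6 libraries. MEK1ca + HOXB8 replicate 2 has the lowest W share (58.1 ppm) and the highest Z ratio (0.821), and MEK1ca + HOXB8 replicate 1 has the lowest Z ratio (0.711).

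The 6 W genes above 1 CPM differed between the MEK1ca + HOXB8 replicates in 1 direction. The gene with the most counts, at W:345220-411011 (11 exon segments, overlapping another gene), had 44.1 and 19.6 CPM in MEK1ca + HOXB8, 45.9 and 55.2 CPM in MEK1ca, and 35.0 and 44.1 CPM in pCIG. The gene at W:22485-138725 (30 exon segments, also overlapping) had 29.8 and 18.5 CPM in MEK1ca + HOXB8, 41.8 and 44.8 CPM in MEK1ca, and 27.6 and 35.0 CPM in pCIG. In both genes the second MEK1ca + HOXB8 library was the lowest of all 6, and the MEK1ca libraries were the highest.

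The gene at W:618629-719218 had 24.0 and 8.38 CPM in MEK1ca + HOXB8, 21.1 and 23.3 CPM in MEK1ca, and 11.5 and 14.3 CPM in pCIG. At W:156236-223268 the values were 9.48 and 4.50 CPM in MEK1ca + HOXB8, 7.37 and 10.7 CPM in MEK1ca, and 5.85 and 7.82 CPM in pCIG. At W:508990-524936 they were 7.0 and 1.57 CPM in MEK1ca + HOXB8, 5.65 and 7.59 CPM in MEK1ca, and 2.83 and 4.55 CPM in pCIG. For these 3 genes too, MEK1ca + HOXB8 replicate 2 was the lowest library. The last of the 6, at W:1013343-1195193, had 3.68 and 1.57 CPM in MEK1ca + HOXB8, 3.54 and 3.21 CPM in MEK1ca, and 1.98 and 2.56 CPM in pCIG.

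On the log2 scale (with 0.5 CPM added to both values), MEK1ca + HOXB8 replicate 2 was lower than replicate 1 by a median of -1.08 over the 6 genes, with single genes between -1.86 and -0.68. In MEK1ca, replicate 2 was higher in 5 of the 6 genes (median 0.20), and in pCIG it was higher in 6 of 6 (median 0.33). A pair of W genes below 1 CPM also passed the filter. One, at W:4704-10272, had 0.41 and 0.55 CPM in MEK1ca + HOXB8, 0.80 and 0.45 CPM in MEK1ca, and 1.07 and 0.38 CPM in pCIG, and so did not follow the others between replicates. The other, at W:809288-809542 (1 exon segment), was lower in replicate 2 in all 3 conditions.

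**Figure D2:**
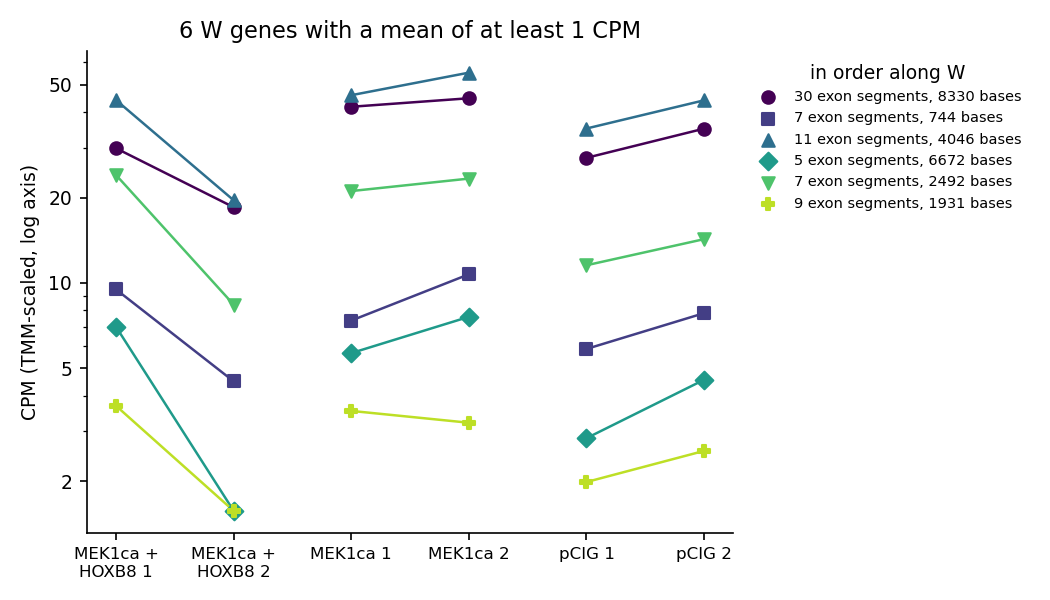
CPM (TMM-scaled, log axis) of the 6 W genes with a mean of at least 1 CPM in the 6 libraries, with lines joining the replicates of a condition. All 6 genes are lower in replicate 2 than in replicate 1 of MEK1ca + HOXB8, and all 6 are higher in replicate 2 of pCIG.

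No W gene passed an adjusted p of 0.01 in any comparison with edgeR's quasi-likelihood test. Over all 13582 genes tested, 16.7% passed in MEK1ca + HOXB8 versus MEK1ca, 14.8% in MEK1ca + HOXB8 versus pCIG and 6.16% in MEK1ca versus pCIG. Of the 8 W genes tested, 1, 0 and 0 had an unadjusted p below 0.05 by edgeR in these 3 comparisons. Of the 12912 autosomal genes tested, 5645, 5282 and 3351 did. DESeq2 called 1, 0 and 0 of the W genes, and the share of all genes that it called was not computed. The gene that DESeq2 called was that at W:22485-138725, with a log2 fold change of -0.84 ± 0.21 (SE) in MEK1ca + HOXB8 versus MEK1ca by edgeR (adjusted p = 0.0153). The spread between replicates was larger for W genes than for others, with a median biological coefficient of variation of 0.266 over the 8 W genes, 0.123 over Z genes and 0.110 over autosomal genes.

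In MEK1ca versus pCIG, all 6 W genes above 1 CPM were on the higher side, with log2 fold changes of 0.35 to 0.84 (median 0.52), and the libraries of 5 of them did not overlap. All 6 were on the lower side in MEK1ca + HOXB8 versus MEK1ca, with log2 fold changes of -0.84 to -0.36, and the libraries of 2 did not overlap. These comparisons share the MEK1ca libraries. The 6 genes mostly moved together between replicates, so that they are not independent of each other. For 1 gene, no overlap of 2 libraries with 2 has a two-sided exact permutation p of 0.333. The share of all genes without overlap was not computed. Between MEK1ca + HOXB8 and pCIG, 4 of the 6 were higher in MEK1ca + HOXB8 and 2 lower (-0.37 to 0.33), with overlap in every gene. The calls turned on single libraries. The share of all genes called without a library was not computed, so that the calls below are not shown to be particular to W. Leaving out a library leaves its condition with 1, which is then assumed to vary like the other conditions, and for MEK1ca + HOXB8 that 1 is the library with either the lowest or the second highest W share. Without MEK1ca + HOXB8 replicate 1, edgeR called 4 W genes lower in MEK1ca + HOXB8 versus MEK1ca, those at W:22485-138725, W:345220-411011, W:508990-524936 and W:618629-719218. Against pCIG it then called the gene at W:345220-411011 lower (-1.02). Without MEK1ca + HOXB8 replicate 2 it instead called the gene at W:618629-719218 higher in MEK1ca + HOXB8 versus pCIG (0.88). That gene was also called higher in MEK1ca versus pCIG when either of the MEK1ca + HOXB8 libraries was left out of the fit (0.78 in both).

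Z genes took 3.54% and 3.99% of the counts in MEK1ca + HOXB8, 3.68% and 3.595% in MEK1ca, and 3.91% and 3.75% in pCIG. The MEK1ca libraries lay below the pCIG libraries without overlap (two-sided exact permutation p = 0.333, the smallest possible), while the MEK1ca + HOXB8 libraries held both the lowest and the highest share. Of the 859 Z genes, 662 passed the filter for the test and 197 did not, 66 had no count in any library, 140 consisted of 1 exon segment and 166 overlapped another gene. By mean TPM (transcripts per 1000000, from counts and exonic length), 565 Z genes were at 1 or more, 396 at 10 or more, 70 at 100 or more and 7 at 1000 or more. The 10 highest genes held 38.9% of the TPM on Z. The highest, at Z:33595465-33600075, had 3309 and 4038 TPM in MEK1ca + HOXB8, 3059 and 2891 TPM in MEK1ca, and 3575 and 3349 TPM in pCIG, and was the 14th of all genes by mean TPM. Of these 10, 8 were higher in replicate 2 than in replicate 1 of MEK1ca + HOXB8. Only 1 of the 10, at Z:8399862-8421056, was called in any comparison (MEK1ca + HOXB8 versus pCIG, edgeR adjusted p = 0.00721). It had 522.3 and 606.4 TPM in MEK1ca + HOXB8 and 430.1 and 428.4 TPM in pCIG. The call was lost without either pCIG library (log2 fold change 0.32 without replicate 1), without either MEK1ca library and without MEK1ca + HOXB8 replicate 2. It was also lost with the 4 libraries compared alone (edgeR adjusted p = 0.0137) and with a replicate term (edgeR adjusted p = 0.0103).

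The level of Z relative to the autosomes was taken as the ratio of the median TPM of the 565 Z genes to that of the 11134 autosomal genes at 1 TPM or more. This ratio was 0.711 and 0.821 in MEK1ca + HOXB8, 0.791 and 0.770 in MEK1ca, and 0.801 and 0.782 in pCIG, so that the median Z gene lay below the median autosomal gene in every library. Among the 28 numbered autosomes and Z, Z had the third lowest mean ratio (0.779), after chromosomes 16 (0.266, 35 genes) and 26 (0.772), and the other 26 lay between 0.875 and 1.52. The ratio averaged 0.766 ± 0.0775 in MEK1ca + HOXB8, 0.781 ± 0.0151 in MEK1ca and 0.791 ± 0.0129 in pCIG (SD, n = 2 each). These conditions overlapped in every comparison (two-sided exact permutation p = 1 for MEK1ca + HOXB8 versus MEK1ca and versus pCIG, and 0.667 for MEK1ca versus pCIG).

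Across the 6 libraries, the Z ratio was set against the W share. Pearson's r was -0.664 (exact permutation p = 0.149) and Spearman's rho was -0.886 (exact permutation p = 0.0333). No adjustment was made for computing both coefficients. The permutations treated the 6 libraries as exchangeable, although they came from 3 conditions, so that differences between conditions enter these p-values. No link between the Z ratio and the W share is concluded from them. Without the 2 libraries whose W share lay farthest from the median, MEK1ca + HOXB8 replicate 2 and pCIG replicate 1, r was -0.173 and rho -0.60 (n = 4, exact permutation p = 0.75 and 0.417). With 4 libraries the smallest two-sided exact p for rho is 0.0833, so that this test could not pass 0.05.

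By the median ratio between replicates, W lay apart from all autosomes in all 3 conditions, and Z in MEK1ca + HOXB8 and pCIG only. Over 558 Z genes with a mean of at least 1 CPM, the median log2 ratio of replicate 2 to replicate 1 was 0.16 in MEK1ca + HOXB8 (interquartile range 0.01 to 0.35), a 1.12-fold higher level, and 427 of the 558 genes (76.5%) were higher in replicate 2. In MEK1ca the Z median was -0.04 and 40.5% of the genes were higher in replicate 2. In pCIG it was -0.05 and 35.8% were higher. Over 10754 autosomal genes the medians were -0.00, 0.00 and 0.01 in the same 3 conditions, with 49.8%, 50.2% and 52.5% of genes higher in replicate 2. In MEK1ca + HOXB8, the medians of the 28 autosomes lay between -0.03 and 0.05, all below the Z median. In MEK1ca they lay between -0.08 and 0.04, with the Z median (-0.04) inside this range only through chromosome 16 (-0.08, 33 genes). The next lowest autosome in MEK1ca was chromosome 19 (-0.03). In pCIG the medians of the autosomes lay between -0.03 and 0.05, with the Z median below this range.

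In each condition the W median and the Z median lay on opposite sides of 0. The replicate with the lower W level had the higher Z level, in MEK1ca + HOXB8 with the largest difference on both chromosomes. In MEK1ca the Z median (-0.04) lay inside the range of the autosomes, but below all of them except chromosome 16. Whether the replicates differed in the share of female embryos was not tested, since the embryos' sex is not given.

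**Figure D3:**
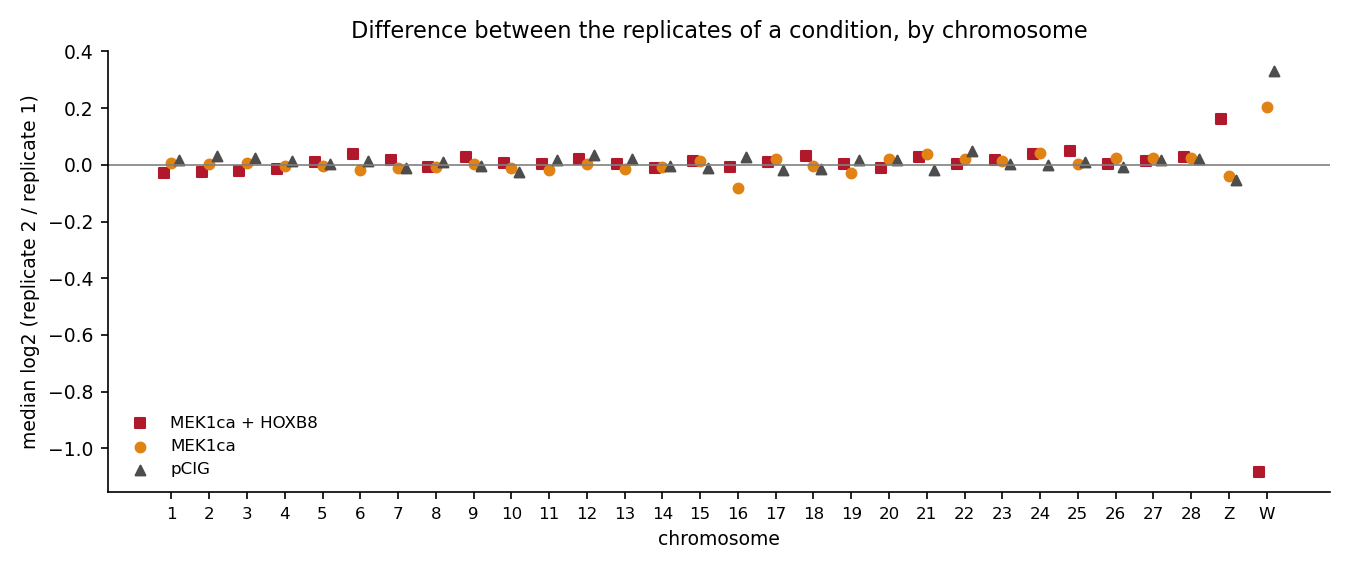
Median log2 ratio of replicate 2 to replicate 1 over the genes of each chromosome with a mean of at least 1 CPM, in MEK1ca + HOXB8 (squares), MEK1ca (circles) and pCIG (triangles). Numbered autosomes stay between -0.08 and 0.05, while Z is at 0.16 and W at -1.08 in MEK1ca + HOXB8.

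The shift between the MEK1ca + HOXB8 replicates was spread along Z. In stretches of 5 Mb, the median log2 ratio lay between 0.05 and 0.24 in 16 of 17 stretches. The exception was the stretch from 25 to 30 Mb, with a median of 0.02 and 11 of 27 genes lower in replicate 2. This stretch held the 3 Z genes with the lowest ratios of all 558. Of these, the gene at Z:26924618-26985411 had 13.1 and 5.82 CPM in MEK1ca + HOXB8, 13.4 and 20.5 CPM in MEK1ca, and 15.9 and 16.8 CPM in pCIG (log2 ratio between the MEK1ca + HOXB8 replicates -1.11). Next along Z, the gene at Z:27179856-27188771 had 6.08 and 2.76 CPM in MEK1ca + HOXB8, 8.95 and 7.57 CPM in MEK1ca, and 5.39 and 4.40 CPM in pCIG (log2 ratio -1.02). Like the 6 W genes, both were lower in replicate 2 of MEK1ca + HOXB8, as were 131 of the 558 Z genes, while in pCIG the second of them was lower in replicate 2, unlike the W genes.

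The third gene, at Z:27483980-27486468, had 4.13 and 2.43 CPM in MEK1ca + HOXB8, 6.48 and 7.54 CPM in MEK1ca, and 2.49 and 1.97 CPM in pCIG (log2 ratio -0.66 between the MEK1ca + HOXB8 replicates). It rose in MEK1ca versus pCIG (log2 fold change 1.65 ± 0.29 SE, edgeR adjusted p = 0.00299), a call lost without pCIG replicate 1 (adjusted p = 0.0151) or replicate 2 (0.0397) and with the log2 W share as a term in the fit (log2 fold change 1.36, adjusted p = 0.0219). Genes between these 3 differed less between the MEK1ca + HOXB8 replicates. The gene at Z:27303515-27312786 had 26.4 and 26.2 CPM in MEK1ca + HOXB8, and that at Z:27391780-27474321 had 29.4 and 33.3 CPM. The gene at Z:27315730-27328174 was on the lower side in replicate 2, with 8.16 and 7.06 CPM in MEK1ca + HOXB8, 6.68 and 8.60 CPM in MEK1ca, and 7.21 and 8.86 CPM in pCIG (log2 ratios -0.20, 0.34 and 0.28). As background, a known stretch of the chicken Z near DMRT1 is transcribed from unmethylated repeats in females only, and whether it lies near these genes in galGal4 could not be looked up here. The 3 genes were singled out after their values were seen, and a log2 ratio below -1 between these replicates was found in 2 of 558 Z genes and in 3 of 10754 autosomal genes.

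**Figure D4:**
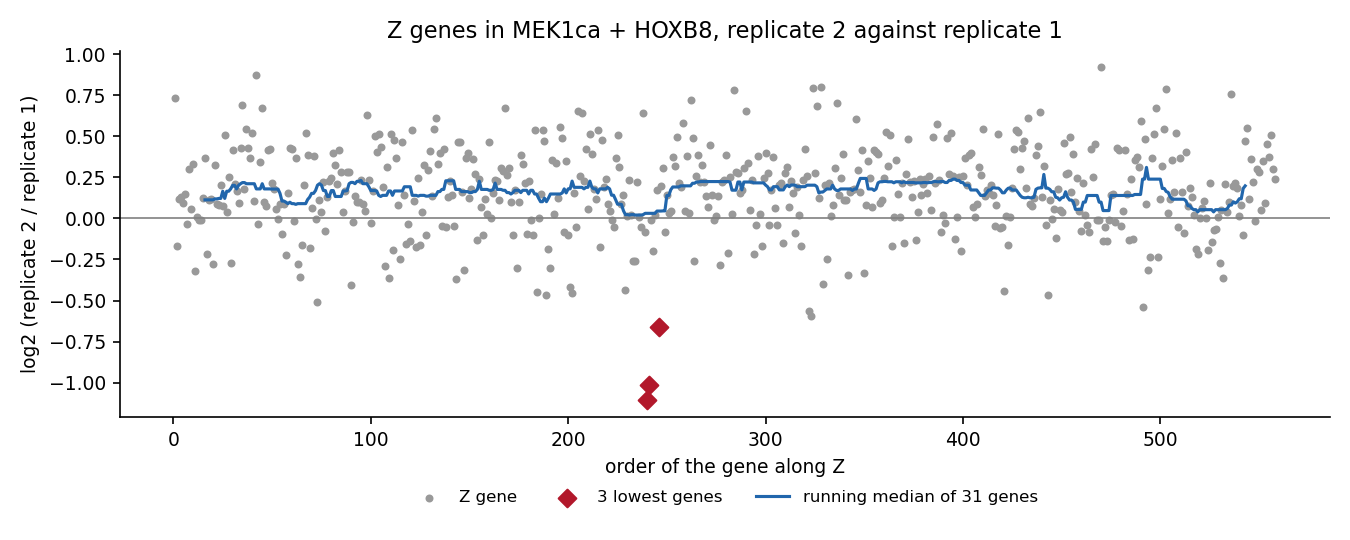
Log2 ratio of replicate 2 to replicate 1 in MEK1ca + HOXB8 for 558 Z genes in their order along the chromosome (grey points), with a running median over 31 genes (line) and the 3 lowest genes marked (diamonds, at -1.11, -1.02 and -0.66). Most points lie above 0, and the running median dips to near 0 where the 3 lowest genes lie.

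In MEK1ca + HOXB8 versus MEK1ca, which asks what HOXB8 changes in cells with the active kinase, 88 of 662 Z genes were called at an edgeR adjusted p of 0.01 or less. Of these, 41 rose and 47 fell, which is 13.3% of the Z genes tested, while over all genes 16.7% were called (8.74% up and 7.99% down). The median log2 fold change of the Z genes was 0.02, as was that of the autosomal genes. The balance of rises and falls depended on scaling and on single libraries. Here and below, the share of all genes called in such other runs was not computed. Their counts of Z calls are thus not shown to be particular to Z. With scaling by library size alone, with which the median of all genes was 0.12 (0.02 with TMM), 62 Z genes were called up and 29 down. Without MEK1ca + HOXB8 replicate 1 the calls were 27 up and 24 down and the Z median was 0.11. Without MEK1ca + HOXB8 replicate 2 they were 23 up and 62 down and the Z median was -0.08. Without MEK1ca replicate 1, 50 were called.

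The strongest rise by the rule used (at least 5 CPM in the higher group, no overlap between libraries) was ENSGALG00000015551, at Z:64830090-64898868, with 40.9 and 38.8 CPM in MEK1ca + HOXB8 and 7.76 and 11.3 CPM in MEK1ca. Its libraries in pCIG had 13.4 and 15.2 CPM, so that MEK1ca + HOXB8 stood above both other conditions. The log2 fold change was 2.06 ± 0.18 (SE, edgeR adjusted p = 2.73e-05), and the call held in every alternative run. The gene at Z:13448488-13455542 had 13.8 and 12.5 CPM in MEK1ca + HOXB8 and 4.86 and 4.41 CPM in MEK1ca, a rise of 1.51 ± 0.20 on the log2 scale (SE, edgeR adjusted p = 0.00032). The gene at Z:80929219-80978534 had 43.6 and 49.6 CPM in MEK1ca + HOXB8 and 18.0 and 17.5 CPM in MEK1ca. The 10 strongest rises spanned log2 fold changes of 0.87 to 2.06.

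Among the falls, 4 genes close to each other had a common profile, of which that at Z:23306377-23314107 was outside the rule and was chosen after its values were seen. ENSGALG00000014994, at Z:23225927-23234667 (7 exon segments), had 0.085 and 0.045 CPM in MEK1ca + HOXB8, 7.54 and 8.10 CPM in MEK1ca, and 0.078 and 0.104 CPM in pCIG. Its neighbour at Z:23271917-23281766 had 18.4 and 13.6 CPM in MEK1ca + HOXB8, 141.8 and 126.0 CPM in MEK1ca, and 21.5 and 19.7 CPM in pCIG. Both were high in the MEK1ca libraries and low in the 4 others. Farther along, the gene at Z:23306377-23314107, had 11.2 and 8.01 CPM in MEK1ca + HOXB8, 25.9 and 27.6 CPM in MEK1ca, and 11.7 and 9.52 CPM in pCIG. The last of the 4, at Z:23350633-23353611, had 0.499 and 0.463 CPM in MEK1ca + HOXB8, 11.8 and 10.2 CPM in MEK1ca, and 0.587 and 0.311 CPM in pCIG, and it lies inside the span of a gene on the other strand, with whose reads its own could be mixed.

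All 4 fell in MEK1ca + HOXB8 versus MEK1ca, with log2 fold changes of -6.86 ± 0.39, -3.06 ± 0.15, -1.48 ± 0.18 and -4.51 ± 0.32 in this order (SE, edgeR adjusted p at most 0.000252). All 4 rose in MEK1ca versus pCIG, by 6.40 ± 0.38, 2.70 ± 0.14, 1.33 ± 0.18 and 4.61 ± 0.32 (SE, edgeR adjusted p at most 0.000664), a call lost only for the third, without pCIG replicate 2 (adjusted p = 0.0131). None of the 4 was called by edgeR in MEK1ca + HOXB8 versus pCIG (adjusted p from 0.073 to 0.851), but without MEK1ca + HOXB8 replicate 1 the second was called lower (log2 fold change -0.60, adjusted p = 0.00823). These comparisons share libraries, so that the rise and the fall are not independent. The neighbours differed from this profile. Between the first pair, the gene at Z:23246850-23248998 had at most 0.0113 CPM, and the gene at Z:23321201-23436518, which spans the fourth, had 54.4 and 60.6 CPM in MEK1ca + HOXB8, 75.2 and 77.8 CPM in MEK1ca, and 70.4 and 74.8 CPM in pCIG. This spanning gene also fell in MEK1ca + HOXB8 versus MEK1ca (log2 fold change -0.41 ± 0.09 SE, edgeR adjusted p = 0.00732). The call was lost without any 1 of the libraries other than MEK1ca + HOXB8 replicate 2. It was also lost with the log2 W share as a term, by library size alone and with the 4 libraries compared alone. The spanning gene was not called in MEK1ca versus pCIG (edgeR adjusted p = 0.664).

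Other strong falls lay elsewhere on Z. The gene at Z:81615205-81720849 had 0.329 and 0.678 CPM in MEK1ca + HOXB8, 17.2 and 15.8 CPM in MEK1ca, and 0.561 and 0.454 CPM in pCIG, a log2 fold change of -5.04 ± 0.32 (SE, edgeR adjusted p = 5.97e-06) in MEK1ca + HOXB8 versus MEK1ca. At Z:40148867-40355175 the values were 1.59 and 1.83 CPM in MEK1ca + HOXB8, 8.59 and 11.7 CPM in MEK1ca, and 4.70 and 3.99 CPM in pCIG, so that its MEK1ca + HOXB8 libraries lay below those of pCIG. Another gene, at Z:52082066-52346243, had 4.76 and 5.34 CPM in MEK1ca + HOXB8, 33.3 and 17.1 CPM in MEK1ca, and 0.209 and 0.493 CPM in pCIG. It lay between the other conditions in MEK1ca + HOXB8, with a fall of -2.32 ± 0.35 (SE, edgeR adjusted p = 0.00173). This fall was no longer called without either MEK1ca + HOXB8 library or with the log2 W share as a term in the fit. Its log2 fold change over the alternatives was -2.73 to -1.76. The 10 strongest falls spanned log2 fold changes of -6.86 to -2.28.

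In MEK1ca + HOXB8 versus pCIG, 77 of 662 Z genes were called (11.6%), 34 up and 43 down, while 14.8% of all genes were called (8.91% up and 5.9% down). The median log2 fold change was -0.04 over Z genes and 0.02 over autosomal genes. By library size alone, which moved the median of all genes to 0.10, the calls were 38 up and 28 down. The difference between the Z median and that of all genes was -0.06 under each of the 4 scalings run. A scaling shifts all genes of a library nearly alike, so that this is no independent check. Without MEK1ca + HOXB8 replicate 1, 40 were called (20 up and 20 down), and without replicate 2, 98 were called (22 up and 76 down). The count was 27 without pCIG replicate 1 and 26 without replicate 2. With the log2 W share of each library as a term in the fit, a choice made after seeing the data, 108 Z genes were called, 28 up and 80 down.

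The strongest fall in this comparison was ENSGALG00000003582, at Z:11029529-11093852, with 39.0 and 55.4 CPM in MEK1ca + HOXB8, 95.2 and 136.5 CPM in MEK1ca, and 197.0 and 173.0 CPM in pCIG. The log2 fold change against pCIG was -1.97 ± 0.22 (SE, edgeR adjusted p = 0.00117), and without MEK1ca + HOXB8 replicate 1 the adjusted p was 0.0155. The conditions were ordered with no overlap, lowest in MEK1ca + HOXB8 and highest in pCIG. A further fall was that of the gene at Z:15930691-15938408, with 12.4 and 16.8 CPM in MEK1ca + HOXB8, 47.2 and 56.1 CPM in MEK1ca, and 59.5 and 49.1 CPM in pCIG (log2 fold change against pCIG -1.90 ± 0.16 SE, edgeR adjusted p = 4.35e-05). Here the MEK1ca and pCIG libraries overlapped, and those of MEK1ca + HOXB8 lay below both. Among the rises, the gene at Z:26415507-26430542 (overlapping another gene) had 18.3 and 18.4 CPM in MEK1ca + HOXB8, 19.6 and 16.4 CPM in MEK1ca, and 7.64 and 7.51 CPM in pCIG, so that both conditions with MEK1ca stood above the control.

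In MEK1ca versus pCIG, which asks what the active kinase changes, 49 of 662 Z genes were called (7.40%), 29 up and 20 down, while 6.16% of all genes were called (4.26% up and 1.9% down). The median log2 fold change was -0.08 over Z genes and -0.00 over autosomal genes. On the lower side lay 59.7% of the Z genes tested and 50.7% of the autosomal genes tested. The MEK1ca libraries also had the higher W share (132.9 against 96.4 ppm). With the W share as a term in the fit, a choice made after seeing the data, the Z median was -0.00. The calls were then 28 up and 12 down. The slope of this term comes from differences within conditions, the largest of which was that of the MEK1ca + HOXB8 pair. MEK1ca and pCIG did not overlap in W share, so that term and condition are hard to tell apart. The same term made the Z median negative in MEK1ca + HOXB8 versus MEK1ca. The part of the embryos' sex in the falls of Z genes in MEK1ca versus pCIG was not tested. Without pCIG replicate 1 the count was 24 (19 up and 5 down), and without replicate 2 it was 21 (17 up and 4 down).

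Besides the 4 neighbouring genes, the strongest rises were the genes at Z:52082066-52346243 (33.3 and 17.1 CPM in MEK1ca, against 0.209 and 0.493 CPM in pCIG) and at Z:81615205-81720849 (17.2 and 15.8 CPM in MEK1ca, against 0.561 and 0.454 CPM in pCIG). Their log2 fold changes were 6.16 ± 0.45 and 5.02 ± 0.32 (SE, edgeR adjusted p = 6.22e-05 and 3.92e-06), and both calls held in every alternative run. The strongest fall was ENSGALG00000023114, at Z:54900617-54910056, with 1.53 and 2.36 CPM in MEK1ca and 5.86 and 6.30 CPM in pCIG (log2 fold change -1.64 ± 0.27 SE, edgeR adjusted p = 0.00202). It was no longer called without MEK1ca replicate 1, without either pCIG replicate or with the log2 W share as a term in the fit. Its log2 fold change over the alternatives was -1.99 to -1.36. The gene at Z:46263610-46283078 had 104.5 and 112.2 CPM in MEK1ca, against 220.2 and 231.7 CPM in pCIG, and its fall (log2 fold change -1.06 ± 0.08 SE, edgeR adjusted p = 1.2e-05) held in every alternative run. It had 152.6 and 160.2 CPM in MEK1ca + HOXB8, between the other conditions.

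The gene at Z:52715880-52804502 had 41.3 and 46.2 CPM in MEK1ca and 33.8 and 47.8 CPM in MEK1ca + HOXB8, against 104.5 and 111.6 CPM in pCIG, and the gene at Z:50468934-50526465 had 33.9 and 40.8 CPM in MEK1ca and 24.7 and 28.8 CPM in MEK1ca + HOXB8, against 68.9 and 71.2 CPM in pCIG. Both were thus below the control in either condition with MEK1ca. Across the 3 comparisons the rule named 43 Z genes in 60 pairs of gene and comparison, of which 34 pairs kept their call in every alternative and 26 lost it when 1 library was left out. None changed its direction. The rule required no overlap between libraries, so that leaving out 1 library could hardly turn a direction, and this is no separate check.

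**Figure D5:**
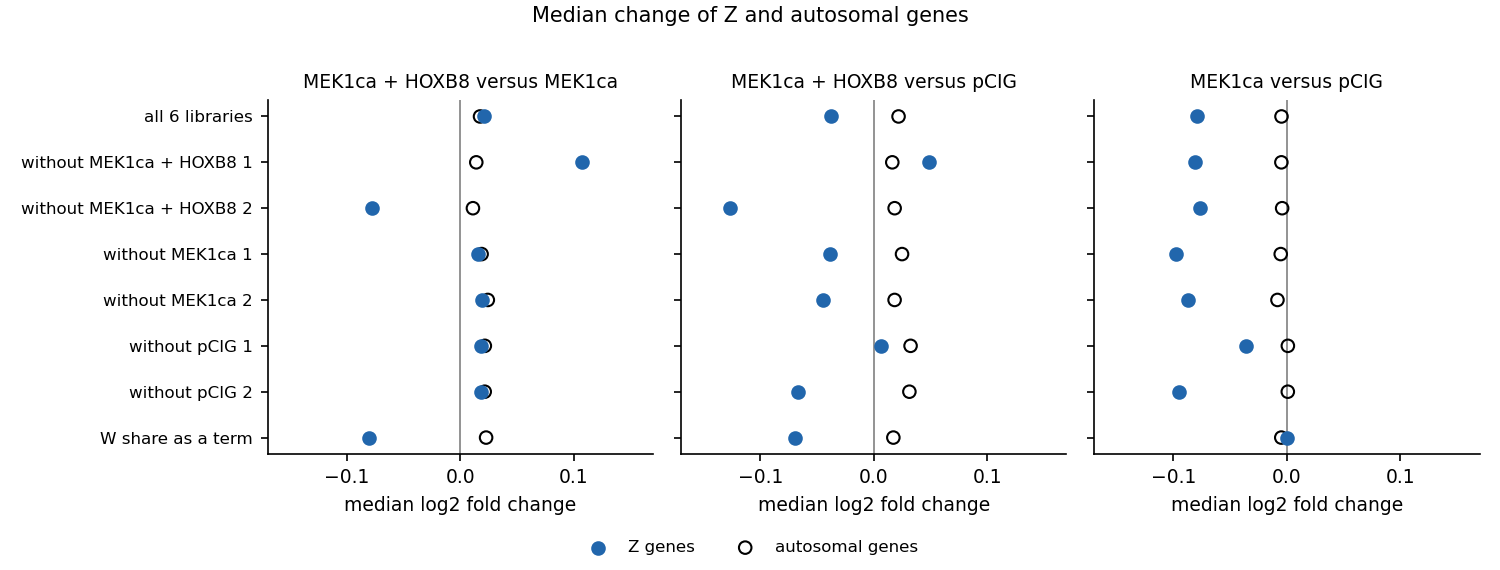
Median log2 fold change of Z genes (filled circles) and of autosomal genes (open circles) in the 3 comparisons, with all 6 libraries, without each library in turn and with the W share as a term in the fit. The autosomal medians stay near 0, while the Z median moves between -0.08 and 0.11 in MEK1ca + HOXB8 versus MEK1ca as 1 of the MEK1ca + HOXB8 libraries is left out.

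Called genes were found in each of 10 groups of 66 or 67 tested Z genes in order of position. In MEK1ca + HOXB8 versus MEK1ca their number lay between 5 and 14, where 16.7% of all genes were called. In MEK1ca versus pCIG it lay between 1 and 9, where 6.16% of all genes were called. In MEK1ca + HOXB8 versus pCIG it lay between 1 (from 21 to 7802806) and 12 (from 7802904 to 11561095), where 14.8% of all genes were called. Whether calls gather in a part of Z was not tested. In MEK1ca versus pCIG the median log2 fold change was negative in 9 of the 10 groups, and it was lowest (-0.19) in the 2 groups from 53292642 to 70424546. The only group with a positive median (0.01) was that from 19280024 to 24614464, which depended on the grouping. In stretches of 5 Mb the median was highest from 25 to 30 Mb (0.08). It was also positive from 70 to 75 Mb (0.02) and from 20 to 25 Mb (0.01).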

How the data were processed

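RNA-Seq counts of 6 libraries were analysed. Per the labels, the authors used Subread for alignment to galGal4 and featureCounts with Ensembl 85 for counting. They deposited raw counts and the exonic length of every gene. Program versions, the strand setting and the handling of reads with several alignments are not given in the sources used here. The authors' deposited tables of 2 comparisons hold fold changes, scores and p-values, and were not used.

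Counts were analysed with edgeR 4.0.16 in R 4.3.3 (limma 3.58.1), with DESeq2 1.42.0 as an alternative, and with Python 3.11.15, numpy 2.4.6, pandas 2.3.3, scipy 1.17.1 and matplotlib 3.10.9. Low genes were removed with filterByExpr (13582 tested), counts were scaled by TMM (factors 0.964 to 1.05), and the model held 1 mean per condition over all 6 libraries, with robust quasi-likelihood dispersion. P-values were adjusted by Benjamini-Hochberg over all genes of a comparison, and 0.01 was the threshold. Standard errors were obtained by dividing the absolute log2 fold change by the root of F. TPM came from counts and exonic length. Ratios between replicates used CPM plus 0.5. Shares of counts have exact 95% intervals.

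Conditions were taken from the labels. P-values measure the spread between 2 pools per condition. The fit was also run on counts simulated from its own means and dispersions, each gene drawn independently. That run cannot show how the fit handles the even counts of MEK1ca replicate 2 or shifts shared by many genes. The numbers of the replicates were not used to pair libraries. Over all genes tested, deviations of same-numbered libraries had correlations of 0.128 (MEK1ca with pCIG), -0.113 (MEK1ca + HOXB8 with pCIG) and -0.027 (MEK1ca + HOXB8 with MEK1ca). Over the Z genes tested they were 0.247, -0.0958 and -0.0717 in the same order. Named genes were all W genes with a mean of at least 1 CPM, the 10 Z genes with the largest changes in each direction per comparison (adjusted p at most 0.01, at least 5 CPM in the higher group, no overlap), and the 10 Z genes with the highest TPM. Other genes named (that at Z:23306377-23314107, the 3 with the lowest ratios between replicates, the neighbours of both sets and 2 W genes below 1 CPM) were chosen after their values were seen. Lists of Z-W gene pairs, Z genes by pathway and cell type markers could not be tested, since 0 identifiers matched a symbol. Alternatives were other scalings and filters, DESeq2, a threshold of 0.05, the 4 libraries compared alone, a replicate term, MEK1ca replicate 2 halved and leaving out each library. The members and lists were chosen with earlier results of these data known.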

Additional observations from a re-analysis of the deposited data

How the results depend on the processing

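Values are given for MEK1ca + HOXB8 versus MEK1ca, MEK1ca + HOXB8 versus pCIG and MEK1ca versus pCIG, in this order. The share of all genes called was computed for the main fit only. The number of Z genes called was 140, 134 and 98 with DESeq2 and 182, 175 and 105 at a threshold of 0.05. When 1 library was left out it ranged from 50 to 85, from 26 to 98 and from 21 to 54. One W gene (count 1) was called in the first with DESeq2 or at 0.05, and 1 in the last with only the 4 libraries compared, and when 1 library was left out 0 to 4, 0 to 1 and 0 to 1 were called. The Z median was -0.0805 in the first and -0.000297 in the last with the W share as a term, an alternative chosen after seeing the data. By library size alone it was 0.126 in the first and 0.0471 in the second, where the median of all genes moved too (0.12 and 0.10). When 1 library was left out it ranged from -0.0782 to 0.107, from -0.126 to 0.0491 and from -0.098 to -0.036. The log2 ratio of the W share in MEK1ca + HOXB8 to that in pCIG was -0.0755, and it turned to 0.019 without the most abundant W gene and to 0.0039 with the geometric mean of the 6 W genes, and ranged from -0.73 to 0.373 when 1 library was left out. The log2 ratio of the Z to autosome ratio turned to 0.0174 in MEK1ca versus pCIG with no minimum TPM, and in MEK1ca + HOXB8 versus MEK1ca to 0.0583 with the mean TPM without the top 1% of genes and to 0.0656 with CPM without length scaling. When 1 library was left out it ranged from -0.135 to 0.0718 in MEK1ca + HOXB8 versus MEK1ca and from -0.155 to 0.0521 in MEK1ca + HOXB8 versus pCIG. Single W genes turned too when 1 library was left out. Against MEK1ca the log2 fold change in MEK1ca + HOXB8 ranged from -1.01 to 0.0552 for the gene at W:156236-223268, from -2.08 to 0.0666 for W:508990-524936, from -1.41 to 0.101 for W:618629-719218 and from -1.10 to 0.116 for W:1013343-1195193. Against pCIG these 4 ranged from -0.606 to 0.461, from -1.235 to 0.91, from -0.625 to 0.885 and from -0.533 to 0.687, and W:345220-411011 from -1.02 to 0.147. The cause of these changes was not tested. With the replicate block the Z calls were 92, 73 and 51 and the W calls 0 in each comparison. Over all genes, the numbers did not pair the libraries by the correlations of their deviations. Over Z genes the highest such correlation was 0.247, between MEK1ca and pCIG. With 2 libraries per condition, no difference in W share or Z ratio could pass the exact permutation test, and the 8 lowest W genes had too few counts for any comparison.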
